A study of Mus musculus with 12 samples.

Results

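The 10 genes described here encode enzymes that write or remove methyl and acetyl groups on lysine 27 of histone H3 (H3K27), together with partners of the methyltransferase. They are *Ezh1*, *Ezh2*, *Eed*, *Suz12* and *Jarid2* of Polycomb repressive complex 2 (PRC2), the demethylase genes *Kdm6a* and *Kdm6b*, the acetyltransferase genes *Crebbp* and *Ep300*, and the deacetylase gene *Hdac2*. They were chosen by name, for what they encode, from 21924 protein-coding genes, and the marks that these enzymes set and erase were read at the genes themselves. Neonatal cerebral cortex was taken at postnatal day 2 from *Gad67-GFP* heterozygote pups of mixed background outcrossed to CD-1, and tissue of several litters was pooled for each sample. Cortical interneurons (CINs) were sorted as GFP-positive cells and non-CINs as GFP-negative cells. Native chromatin immunoprecipitation after MNase digestion was performed for H3K27ac and for H3K27me3, with 2 replicates of each population. Each of the 8 samples gave 1 list of broad peaks, and the 4 input samples entered only through peak calling. GFP was expressed from the *Gad67* (*Gad1*) locus, so it marks GABAergic cells in general, and all samples share this heterozygous allele. The non-CIN population is the remainder of the cortex, a mixture enriched for glutamatergic neurons and glia.

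PRC2 methylates H3K27, and its product H3K27me3 marks repressed or poised genes. A single lysine 27 carries either a methyl or an acetyl group, so removal of one mark is a precondition for the other. KDM6 demethylases take off the methyl groups, CREBBP and EP300 add the acetyl group that marks active promoters and enhancers, and class I deacetylases such as HDAC2 take it off. In the developing forebrain PRC2 is best known for holding back neuronal and regional genes in progenitors, and many of these enzymes are altered in human neurodevelopmental syndromes.

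Each gene was read in a window from 5 kb upstream of its GENCODE start to its end. Covered length is the number of bp of that window that lie under peaks of 1 list. The percentile is the rank, within its own list, of the fold enrichment of the strongest peak in the window, so that 95 means that 95 in every 100 peaks of that list were no stronger. Peak lists hold no read counts, so the depth behind a value is unknown and a missing peak means only that none was called. The 4 H3K27ac lists held 46040 to 62505 peaks over 40.8 to 56.3 Mb, and the 4 H3K27me3 lists held 36662 to 45081 peaks over 34.5 to 49.8 Mb. The H3K27ac lists of replicate 1 were longer than those of replicate 2 in both populations. With 2 lists on each side, the smallest two-sided exact permutation p is 0.333, so no single gene can pass that test, and a gene is described as covered more or less in CINs where both CIN lists lay on the same side of both non-CIN lists.

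The sorted populations were checked with marker genes. H3K27ac covered more of 7 of 8 GABAergic markers in both CIN lists, with *Dlx1* at 10234 and 8322 bp in CINs and at 0 bp in both non-CIN lists, and the other marker was *Lhx6*. Of 6 astrocyte and oligodendrocyte markers, 4 were covered less in CINs, although *Slc1a3* was still covered over 21905 and 23715 bp in the CIN lists against 33243 and 38912 bp. By H3K27ac, 2 of 8 glutamatergic markers (*Emx1* and *Emx2*) were covered less in CINs and 1 (*Slc17a6*) was covered more. H3K27me3 covered 5 of the 8 GABAergic markers less in CINs and 0 more. It covered 2 of the 8 glutamatergic markers more and 0 less, namely *Neurod6*, with 1805 and 3171 bp in CINs and 0 bp in both non-CIN lists, and *Emx1*, with 10144 and 12189 bp against 8184 and 9126 bp. The lists used here hold no H3K27ac peak at *Lhx6*, *Neurod2* and *Slc17a7*, which is not read as a lack of the mark, since these lists may not be complete there. H3K27me3 was called at these genes in all 4 lists. At *Lhx6* it covered 22468 and 24062 bp in CINs versus 22717 and 23689 bp in non-CINs. Of 5 microglial and endothelial markers, 1 (*Cx3cr1*) was covered less in CINs. The part of these other cell types in the values below was not tested, and in a sorted pool more marked cells and more mark per cell cannot be told apart.

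Most of the H3K27 enzyme genes carried an H3K27ac peak near the start in both populations. A peak lay within 1 kb of the GENCODE start in all 4 lists at 8 of the 10 genes, the exceptions being *Ezh1* and *Kdm6b*, and 45.9% of all protein-coding genes met the same criterion. A peak lay over the start base itself in all 4 lists at 3 genes, *Ezh2*, *Eed* and *Hdac2*, where the background was 27.3%. The median percentile of the 10 genes, for the strongest peak anywhere in the window, was 94.1 and 93.7 (CINs) versus 95.6 and 91.5 (non-CINs). The medians of all 14650 genes with an H3K27ac peak in at least 1 list were 86.1, 81.4, 85.4 and 79.5. Among the 10062 genes with H3K27ac within 1 kb of the start in all 4 lists, they were 89.9, 86.9, 89.8 and 85.1. The median of the members was above both of these in every list, while *Ezh1* lay far below them. Window length was not taken into account in this comparison. Within 1 kb of the start, the strongest peak of *Jarid2* was at percentiles of 81.4 and 15.1 in CINs versus 79.7 and 37.3 in non-CINs. That of *Crebbp* was at 83.4 and 72.7 versus 81.3 and 70.9.

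**Figure D1:**
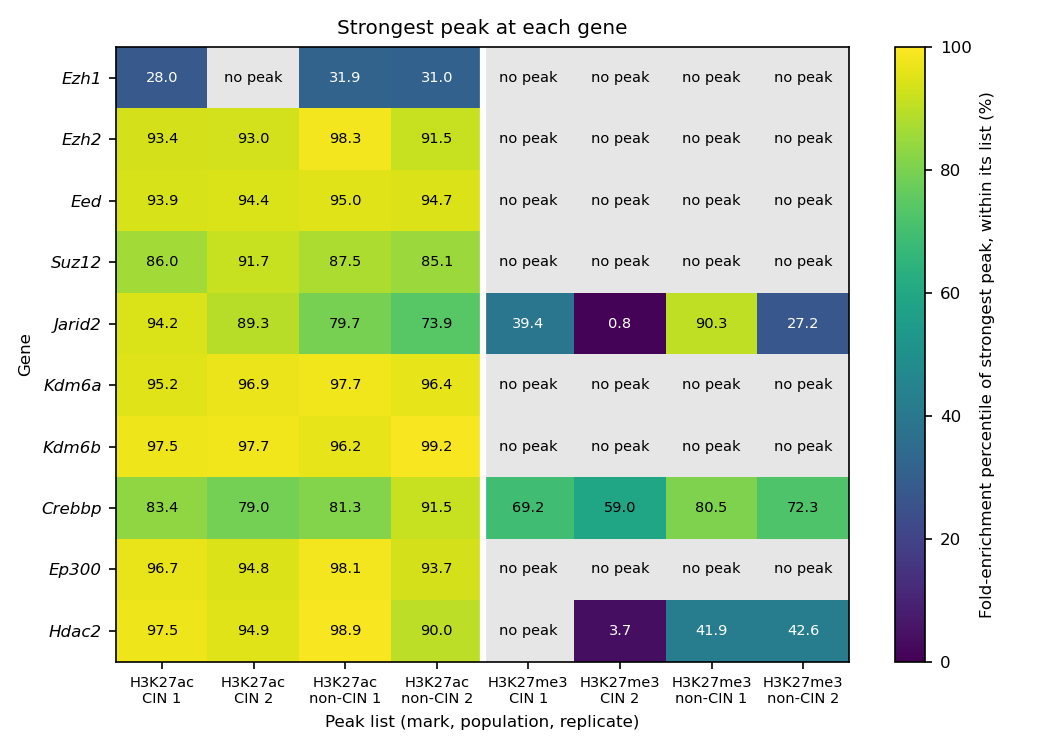
Fold-enrichment percentile of the strongest peak in the window of each of the 10 genes (rows) in the 8 peak lists (columns), with grey cells where no peak was called. H3K27ac percentiles were 73.9 or higher at every gene except *Ezh1*, and H3K27me3 peaks were called at 3 genes only, *Jarid2*, *Crebbp* and *Hdac2*.

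Differences between CINs and non-CINs were few. H3K27ac covered more of 2 genes in CINs, *Jarid2* and *Kdm6a*, where 18.1% of genes with a peak did so. It covered less of 1 gene, *Crebbp*, where the background was 18.0%. The strongest peak had a higher percentile in both CIN lists at 1 gene (*Jarid2*, background 20.8%) and a lower one at 2 genes (*Ezh1* and *Eed*, background 15.6%). Counts of 2, 1, 1 and 2 among 10 are near what these percentages give, and nothing particular to the set is read from them. When CINs and non-CINs were compared within each replicate number, *Ep300* joined *Crebbp* as covered less in CINs.

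**Figure D2:**
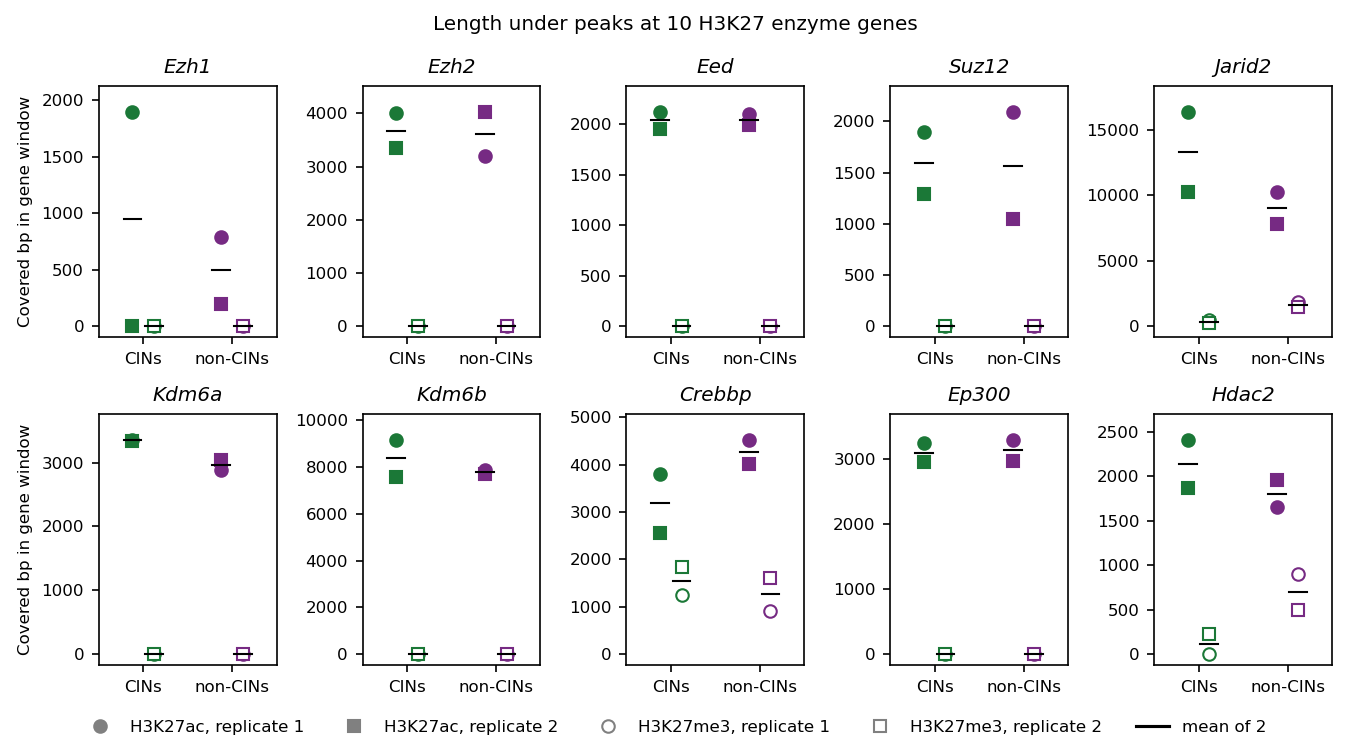
Covered length in the gene window (bp) for each gene in CINs and non-CINs, with filled symbols for H3K27ac, open symbols for H3K27me3, circles for replicate 1, squares for replicate 2 and a bar at the mean of 2. The CIN symbols for H3K27ac lie above both non-CIN symbols at *Jarid2* and *Kdm6a* and below them at *Crebbp*, and at most other genes the populations overlap.

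H3K27me3 peaks were called in at least 1 list at 3 of the 10 genes. No H3K27me3 peak was called in any list in the windows of 7 genes, namely *Ezh1*, *Ezh2*, *Eed*, *Suz12*, *Kdm6a*, *Kdm6b* and *Ep300*. The same held for 59.3% of all protein-coding genes and for 64.3% of genes with H3K27ac at the start, so that 7 of 10 is close to the background. With 10 kb upstream in place of 5 kb, 4 genes had none (*Ezh2*, *Eed*, *Suz12* and *Ep300*). *Jarid2* and *Crebbp* had a peak in all 4 lists, which was the case for 21.1% of all genes and 13.3% of those with H3K27ac at the start. Only the 3 genes with a peak in at least 1 list could differ. Of these, 0 were covered more by H3K27me3 in CINs and 2 were covered less, *Jarid2* and *Hdac2*, where the shares of the 8933 genes with such a peak were 7.33% and 11.1%. Within replicate numbers, *Crebbp* counted as covered more in CINs. In 3 of the 4 H3K27me3 lists at *Jarid2*, and in the 3 lists with a peak at *Hdac2*, the strongest peak had a −log10 q under 4, so these differences rest on weak calls, and with a limit of 4 on −log10 q neither gene was covered less.

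The PRC2 catalytic subunits are encoded by the paralogues *Ezh2*, known from dividing cells, and *Ezh1*, known for a lower methyltransferase activity and for expression in cells that no longer divide. Their starts differed more from each other than CINs did from non-CINs. The 250 bases before the GENCODE start are shown for these genes and for the core subunits *Eed* and *Suz12*, because the start is where the acetylation of the 4 genes differed, with each CG pair in capitals.
Ezh1, chr11:101226464-101226713, minus strand: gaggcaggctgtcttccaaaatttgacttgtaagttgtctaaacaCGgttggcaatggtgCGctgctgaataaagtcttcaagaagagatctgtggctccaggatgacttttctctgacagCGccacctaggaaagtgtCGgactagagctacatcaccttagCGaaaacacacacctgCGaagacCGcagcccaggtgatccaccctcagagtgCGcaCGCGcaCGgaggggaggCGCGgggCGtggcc
Ezh2, chr6:47595342-47595591, minus strand: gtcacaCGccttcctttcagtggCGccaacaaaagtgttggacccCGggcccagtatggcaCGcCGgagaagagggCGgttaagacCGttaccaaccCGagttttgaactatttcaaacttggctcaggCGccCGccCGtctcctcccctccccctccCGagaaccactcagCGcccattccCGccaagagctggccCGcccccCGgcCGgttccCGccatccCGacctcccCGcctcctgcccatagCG
Eed, chr7:89980984-89981233, minus strand: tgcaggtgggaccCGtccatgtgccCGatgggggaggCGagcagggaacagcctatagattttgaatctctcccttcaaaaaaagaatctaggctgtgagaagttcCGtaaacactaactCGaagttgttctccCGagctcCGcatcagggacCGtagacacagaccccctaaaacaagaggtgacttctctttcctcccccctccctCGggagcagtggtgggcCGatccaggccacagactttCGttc
Suz12, chr11:79992856-79993105, plus strand: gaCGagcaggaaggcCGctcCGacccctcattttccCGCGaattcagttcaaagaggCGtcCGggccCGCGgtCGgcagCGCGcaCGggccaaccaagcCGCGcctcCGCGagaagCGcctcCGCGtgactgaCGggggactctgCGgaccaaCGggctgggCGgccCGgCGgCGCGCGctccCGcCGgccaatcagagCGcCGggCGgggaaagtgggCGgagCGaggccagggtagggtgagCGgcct
These sequences were read 5′ to 3′ along the gene from the RefSeq genome assembly GRCm38.p6, the build of the peak lists (mm10). CG pairs numbered 14 before *Ezh1*, 21 before *Ezh2*, 11 before *Eed* and 37 before *Suz12*, and GC content was 55.2%, 65.2%, 54.8% and 73.6%. The order of CG pairs was not that of acetylation, since *Eed*, with the fewest, had higher percentiles in every list than *Suz12*, with the most.

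The RefSeq promoter table, with 300 bases for each start (250 before and 50 after), held 9 of the 10 genes, all but *Kdm6b*, in 10 entries. Its members had 17 to 49 CG pairs, all above the median of 14 over 20150 protein-coding entries, and *Crebbp* had the highest GC content at 82.0%. Promoter cores of 4 factor families were searched on both strands. The E2F cores TTTCCCGC, TTTCGCGC, TTTGCCGC and TTTGGCGC matched at *Suz12* (TTTCCCGC, beginning 219 bases before the start) and at *Ezh2* (TTTGGCGC, just after the RefSeq start), and 2.87% of all entries held one. The NRF1 core GCATGCGC (3.65% of entries), the ETS core CCGGAAG (11.9%) and the CRE core TGACGTCA (2.31%) had no match in the entries of the members, which says only that these letters are absent from these windows.

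*Ezh2* carried a broad H3K27ac peak over the start. Its covered length was 4000 and 3351 bp in CINs versus 3193 and 4030 bp in non-CINs, and the ranges of the populations overlapped. The peak over the start reached from 664 to 923 bp upstream to between 1910 and 3061 bp downstream. Percentiles were 93.4 and 93.0 in CINs versus 98.3 and 91.5 in non-CINs. A second GENCODE start, 17681 bp into the gene, had no H3K27ac within 1 kb in any list.

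*Ezh1* was the least acetylated of the 10 genes. H3K27ac covered 1898 and 0 bp in CINs versus 794 and 200 bp in non-CINs. The replicates differed more than the populations. A small peak began 105 to 142 bp after the start in replicate 1 of both populations and was absent from replicate 2 of both, and a region 3301 to 4834 bp upstream had a peak in 3 lists. Percentiles were 28.0, none, 31.9 and 31.0, so that *Ezh1* counted as lower in CINs, with the list without a peak ranked at 0. The CIN minus non-CIN difference of the means was -17.4 points, and -3.47 points without CIN replicate 2, the list with no peak. Without the upstream part of the window, the mean percentile was 0.535 points higher in CINs. The covered length in CIN replicate 1 was above the median of 1825 bp over genes with a peak, whereas the other 3 lists were below theirs. No H3K27me3 peak lay in its window.

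The core subunits EED, which binds H3K27me3 and stimulates the enzyme, and SUZ12, the scaffold of the complex, had a single acetylated region each, at the start. At *Eed* 1 peak per list reached from 692 to 845 bp upstream to 1251 to 1279 bp downstream. It covered 2120 and 1951 bp in CINs versus 2097 and 1988 bp in non-CINs, the closest match between populations among the 10 genes, with a difference of 7.0 bp between means. Its percentile was 93.9 and 94.4 in CINs versus 95.0 and 94.7 in non-CINs, so that the populations did not overlap, yet the means differed by 0.635 points (two-sided exact permutation p = 0.333, the smallest that 2 against 2 lists can give). At *Suz12* 2 peaks flanked the start in all 4 lists, with a gap of 218 to 635 bp over it. H3K27ac covered 1900 and 1296 bp in CINs versus 2095 and 1045 bp in non-CINs. The gap was 218 and 269 bp in replicate 1 and 597 and 635 bp in replicate 2, so it followed the replicate and not the population.

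**Figure D3:**
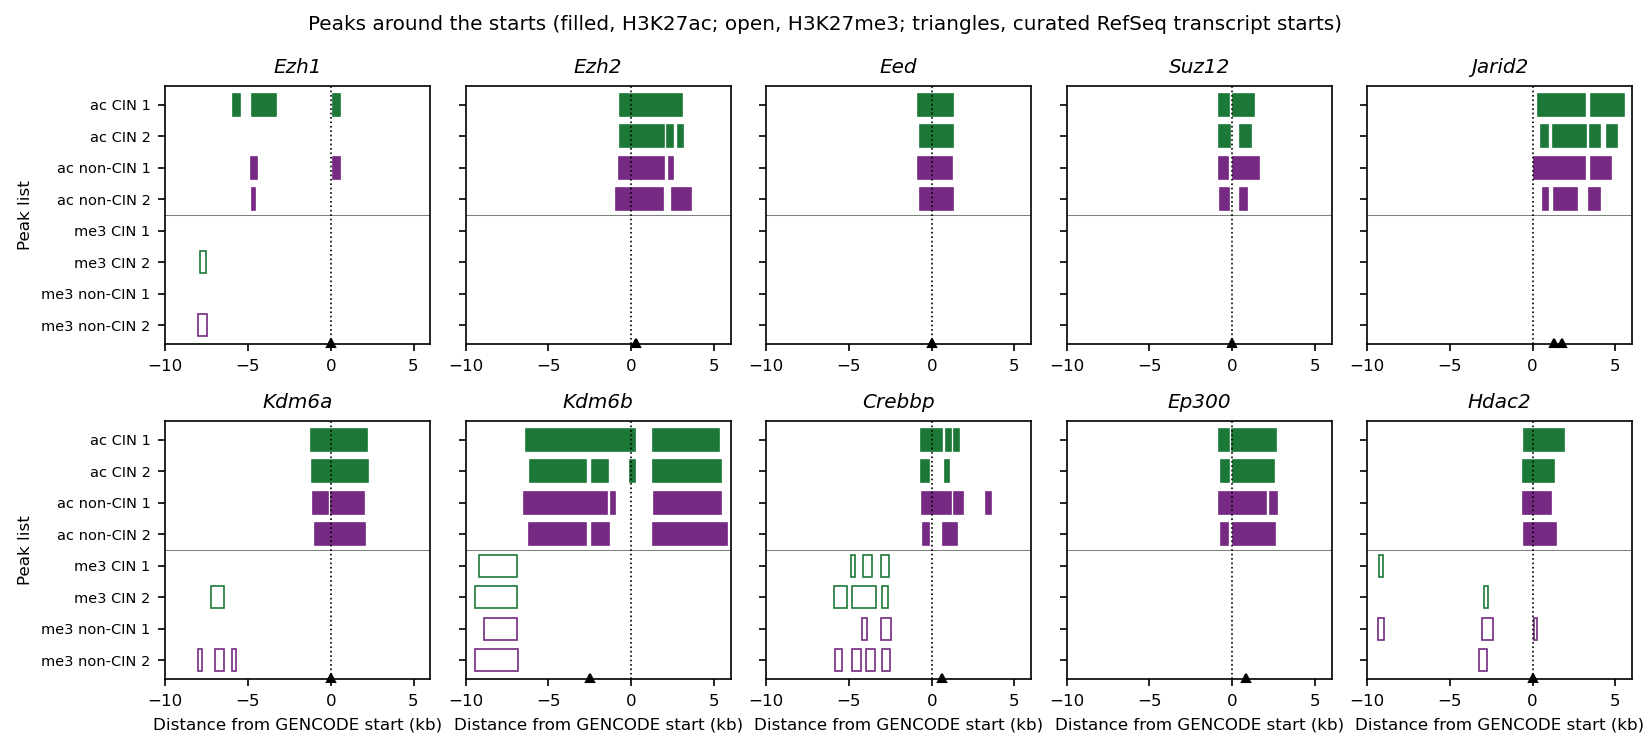
Peaks from 10 kb upstream to 6 kb downstream of the GENCODE start (dotted line, distance in kb) in the 8 lists, for each of the 10 genes, with filled boxes for H3K27ac, open boxes for H3K27me3 and triangles at curated RefSeq transcript starts. Peaks flank the start at *Suz12*, the acetylated block of *Kdm6b* lies upstream of the GENCODE start and ends 392 to 771 bp short of an H3K27me3 peak, and *Ezh1* has no H3K27ac peak over the start.

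*Jarid2*, whose product helps to recruit PRC2 and lacks the demethylase activity of other Jumonji proteins, showed the largest difference between populations in bp covered by H3K27ac, while the ratio of covered lengths and the difference in percentile were larger at *Ezh1*. H3K27ac covered 16363 and 10264 bp in CINs versus 10255 and 7774 bp in non-CINs, so the 2 sides were separated by 9 bp between CIN replicate 2 and non-CIN replicate 1. Within replicates the CIN list was the larger each time. Scaled to the length of each list, the values were 291 and 251 bp per Mb in CINs versus 203 and 177 bp per Mb in non-CINs, a clearer separation. The mean was 1.48 times higher in CINs (13313.5 ± 4313 bp, SD, n = 2, against 9014.5 ± 1754 bp, n = 2; two-sided exact permutation p = 0.333). The size rested on CIN replicate 1, the longest list, since the CIN minus non-CIN difference of 4299.0 bp was 1249.5 bp without it and 7348.5 bp without CIN replicate 2. *Jarid2* is the longest of the 10 genes (192170 bp), and in every list its covered length was at or above that of at least 96.2% of protein-coding genes.

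The acetylation of *Jarid2* was spread over 13 separate regions, of which 7 had a peak in all 4 lists and 5 in CIN replicate 1 only. The region at the 5′ end began 104 to 606 bp after the gene start in the 4 lists and lay over the 3 protein-coding transcript starts of the basic annotation, which follow the gene start by 1300 to 1797 bp. Its covered length was 4808 and 3572 bp in CINs versus 4293 and 2359 bp in non-CINs, and the populations overlapped. The regions where they did not overlap lay in introns of the GENCODE model. One in intron 2 (chr13:44839334-44841334) holds a predicted RefSeq start, 111346 bp after the gene start and under a peak in all 4 lists. In 4 of the 13 regions both CIN lists were covered more than both non-CIN lists, and 3 of these also had higher percentiles in CINs.

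A region in intron 1, 21356 to 23968 bp after the gene start (chr13:44750830-44753442), covered 2613 and 1957 bp in CINs versus 1666 and 1394 bp in non-CINs. Its percentiles were 94.2 and 89.3 in CINs versus 78.9 and 68.9 in non-CINs. It held the strongest acetylation of the gene in both CIN lists, whereas the strongest peak in both non-CIN lists was at the 5′ end. Another region, in intron 1 (chr13:44814821-44816319), covered 1455 and 716 bp in CINs versus 200 and 345 bp in non-CINs, at percentiles of 52.4 and 45.6 against 27.1 and 24.8. Both regions had peaks in both populations, so neither was particular to CINs by presence.

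**Figure D4:**
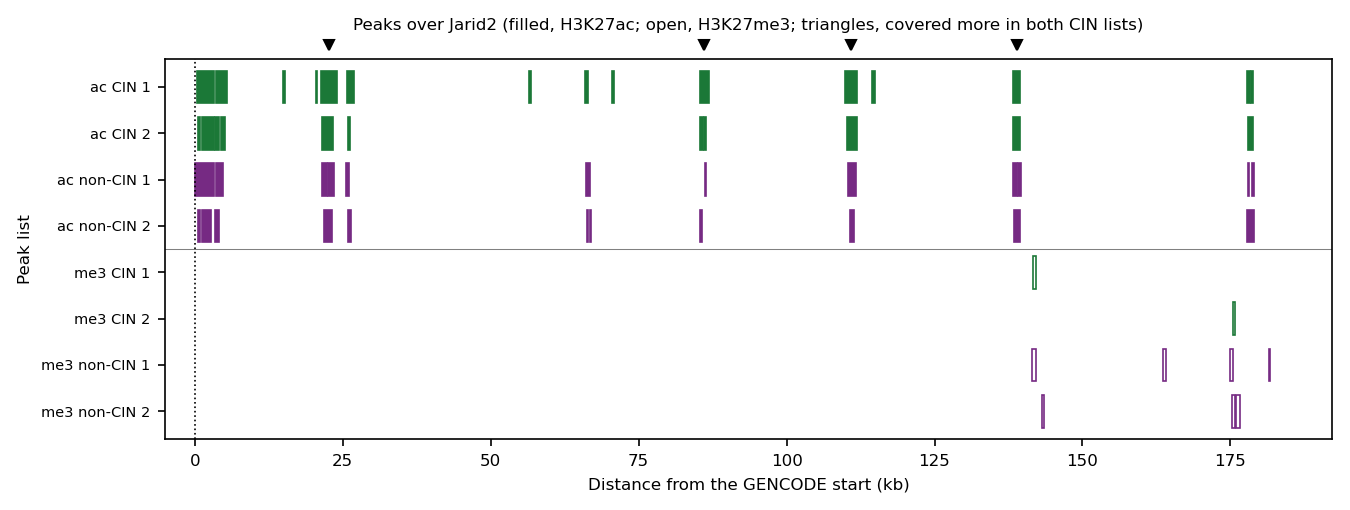
Peaks over *Jarid2* in the 8 lists, by distance from the GENCODE start (kb), with filled boxes for H3K27ac, open boxes for H3K27me3 and triangles over the 4 regions with more H3K27ac covered length in both CIN lists than in either non-CIN list. The 5′ region is marked in every H3K27ac list, and H3K27me3 peaks are small and lie in the 3′ part of the gene.

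The central 300 bases of the stretch between the outermost peak edges shared by the 4 lists are given for the first of these regions, since it held the strongest acetylation of the gene in CINs. Capitals mark matches on either strand to the E-box letters CAGCTG or CAGATG.
Jarid2 intron 1, chr13:44751798-44752097, plus strand: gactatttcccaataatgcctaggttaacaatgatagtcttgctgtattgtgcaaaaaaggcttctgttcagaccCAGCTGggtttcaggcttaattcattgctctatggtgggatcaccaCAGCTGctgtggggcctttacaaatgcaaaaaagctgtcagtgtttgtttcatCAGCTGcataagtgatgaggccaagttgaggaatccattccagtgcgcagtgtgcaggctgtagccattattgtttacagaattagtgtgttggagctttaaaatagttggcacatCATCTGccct
In non-CIN replicate 1 the region was 2 peaks, and 215 of these bases lay in the gap between them. The sequence held 4 such matches and 1 CG pair. Letters of a homeodomain core (TAATTA), a SOX core (ACAAAG) and an AP-1 core (TGACTCA) were searched too and had no match. At the centre of 70698 H3K27ac stretches shared by both replicates of a population, 300 bases held an E-box match in 35.0%, the homeodomain core in 7.25%, the SOX core in 27.8% and the AP-1 core in 4.47%. The matches are a description of the letters and name no bound factor.

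H3K27me3 at *Jarid2* was sparse and went the other way. It covered 477 and 262 bp in CINs versus 1846 and 1445 bp in non-CINs, in 1 peak in each CIN list and 4 and 3 peaks in the non-CIN lists. No peak lay at the 5′ end. All 5 regions were 141430 bp or more from the gene start, in introns 3, 5 and 7 or overlapping an exon, and none was called in all 4 lists, so that presence in every list came from different places.

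The H3K27 demethylase genes were strongly acetylated. *Kdm6a*, the X-linked gene of UTX, which also works within an H3K4 methyltransferase complex, had 1 region over the start. H3K27ac covered 3360 and 3341 bp in CINs versus 2888 and 3036 bp in non-CINs, and the populations did not overlap. The mean was 1.13 times higher in CINs (3350.5 ± 13.4 bp, SD, n = 2, against 2962.0 ± 105 bp, n = 2; two-sided exact permutation p = 0.333). Scaled to list length, 59.7 and 81.8 bp per Mb in CINs overlapped with 57.3 and 69.0 in non-CINs, so the difference held for unscaled length only. The CIN minus non-CIN difference of 388.5 bp was 170.0 bp with no upstream part and 276.5 bp with peaks merged at 500 bp, with the populations still apart. Percentiles also overlapped, at 95.2 and 96.9 against 97.7 and 96.4. In non-CIN replicate 1 the peak was split by a gap of 224 bp over the start. The sexes were pooled in unknown proportion, and their part in the values of this X-linked gene was not tested.

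*Kdm6b*, which encodes the inducible demethylase JMJD3, had the highest share of its window under H3K27ac, from 37.6% to 45.5% in the 4 lists. H3K27ac lay over 9182 and 7578 bp in CINs versus 7891 and 7699 bp in non-CINs, and the populations overlapped. Its percentiles of 97.5, 97.7, 96.2 and 99.2 were among the highest of the 10 genes, and its covered length exceeded or equalled that of at least 95.3% of protein-coding genes in each list. The acetylation formed a block upstream of the GENCODE start, up to 6494 bp away, and a second block 1323 to 5796 bp inside the gene. The GENCODE start itself lay between the blocks, at the near edge of the upstream one. It was under a peak in the 2 CIN lists and in neither non-CIN list. In CIN replicate 2 that peak was weak, 289 bp long at a percentile of 2.92.

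The contrast at the GENCODE start also depends on the gene model. RefSeq places the curated start of *Kdm6b* 2519 bp upstream and the farthest predicted start 6692 bp upstream of the GENCODE start. The curated start had H3K27ac within 1 kb in all 4 lists, and a predicted start 4465 bp upstream lay under a peak in all 4 lists. Just beyond the farthest predicted start, an H3K27me3 peak was called in each of the 4 lists, and it was missed by the 5 kb window. It was 2288 and 2549 bp long in CINs versus 2008 and 2611 bp in non-CINs, at percentiles from 85.4 to 93.9, and reached into the end of the neighbouring gene *Dnah2*, which was named after its values were seen. The H3K27ac block ended 513 and 771 bp before it in CINs versus 392 and 635 bp before it in non-CINs. The marks thus faced each other across one short unmarked stretch in both populations, without overlap. With RefSeq models, 5 of the 10 genes had no H3K27me3 in any list and 3 had it in all 4.

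The acetyltransferases CREBBP and EP300 are paralogues, and their genes were marked differently. *Ep300* had a single acetylated region at the start, with 3241 and 2944 bp covered in CINs versus 3293 and 2966 bp in non-CINs and no H3K27me3. The populations overlapped, and the means differed by 37.0 bp. In 3 lists a gap of 203 to 280 bp lay over the gene start, while the GENCODE transcript start 46 bp further on was under a peak in all 4 lists.

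*Crebbp* was the one gene covered less by H3K27ac in CINs. The values were 3811 and 2562 bp in CINs versus 4528 and 4002 bp in non-CINs, and the CIN mean was 0.747 times the non-CIN mean (3186.5 ± 883 bp, SD, n = 2, against 4265.0 ± 372 bp, n = 2; two-sided exact permutation p = 0.333). Scaled to list length, 67.7 and 62.7 bp per Mb in CINs lay below 89.8 and 91.0 in non-CINs. Percentiles of the strongest peak overlapped, at 83.4 and 79.0 in CINs versus 81.3 and 91.5 in non-CINs. When peaks up to 500 bp apart were merged, the populations overlapped, although the CIN minus non-CIN difference was -1229.5 bp, from -1078.5 bp. The difference was -454.0 bp without CIN replicate 2 and -1703.0 bp without CIN replicate 1. Its acetylation lay in 9 regions, 3 of them in all 4 lists and 5 in 1 list only. The 1 region covered less in both CIN lists (chr16:4138431-4139898) had 724 and 829 bp in CINs versus 980 and 1468 bp in non-CINs. Its percentiles were higher in CINs, at 58.9 and 45.0 versus 41.1 and 38.1. The start region covered 1815 and 757 bp in CINs versus 2252 and 1224 bp in non-CINs and was interrupted over the start in replicate 2 of both populations, by 943 bp in CINs versus 843 bp in non-CINs. In replicate 2 of both populations the strongest peak was a region in intron 2 (chr16:4160333-4161445), at percentiles of 79.0 and 91.5, and not the start.

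Against the direction of the gene as a whole, *Crebbp* held the 1 CIN-only H3K27ac region among the 10 genes. A CIN-only region was a merged peak with no overlap in the non-CIN list of the same replicate number that recurred in both replicates. It lay in intron 1 (chr16:4199387-4199691, 305 bp), at percentiles of 25.2 and 14.5, so it was a weak peak in both CIN lists. In all, 6.8% of protein-coding genes had a CIN-only region in their window and 6.86% had a non-CIN-only region, of which the 10 genes had 0. The 300 central bases are shown because it is the one region of the 10 genes that met the CIN-only criterion, with a match to the homeodomain core TAATTA in capitals.
Crebbp intron 1, chr16:4199389-4199688, plus strand: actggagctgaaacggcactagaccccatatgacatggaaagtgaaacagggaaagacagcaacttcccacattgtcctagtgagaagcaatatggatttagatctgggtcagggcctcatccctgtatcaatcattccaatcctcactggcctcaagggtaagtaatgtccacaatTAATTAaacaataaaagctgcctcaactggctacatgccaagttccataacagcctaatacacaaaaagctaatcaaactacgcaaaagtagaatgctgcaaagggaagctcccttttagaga
It held 1 such match, as did 7.25% of the H3K27ac stretches, and 2 CG pairs.

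*Crebbp* also had H3K27me3 in every list, upstream of the start. One region 2437 to 4879 bp upstream covered 1246 and 1832 bp in CINs versus 909 and 1616 bp in non-CINs, in 2 or 3 peaks per list. Replicate 2 was higher in both populations, and within each replicate CINs were higher. With a −log10 q of at least 4 the direction turned, to a CIN minus non-CIN difference of -922.0 bp from 276.5 bp, and it also turned without CIN replicate 2 (-16.5 bp) or non-CIN replicate 1 (-77.0 bp). Percentiles went the other way, at 69.2 and 59.0 in CINs below 80.5 and 72.3 in non-CINs. The acetylated start and the methylated upstream flank were separate in all 4 lists, since the H3K27ac region reached no farther than 664 bp upstream.

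*Hdac2*, a class I deacetylase of the NuRD, SIN3 and CoREST complexes, had 1 acetylated region over the start. It covered 2416 and 1872 bp in CINs versus 1653 and 1955 bp in non-CINs, at percentiles of 97.5, 94.9, 98.9 and 90.0, and the populations overlapped in both measures. H3K27me3 covered 0 and 231 bp in CINs versus 897 and 501 bp in non-CINs, so CINs lay below non-CINs. All but 200 bp of it came from a region 2388 to 3255 bp upstream with a peak in 3 lists. In non-CIN replicate 1 a second peak of 200 bp lay 78 bp after the start, under H3K27ac of the same population, at a percentile of 5.54. At 10 kb upstream *Hdac2* had H3K27me3 in all 4 lists.

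Related genes of the same pathways were read in the same way, 58 in all, grouped by what they encode. H3K27ac covered 13 more and 5 less in CINs and overlapped between populations at 40, against the backgrounds of 18.1% and 18.0%. By the percentile of the strongest peak, 18 were higher and 4 lower in CINs, against backgrounds of 20.8% and 15.6%. By role and covered length, 3 of 7 other PRC2 subunit genes were covered more and 1 less, 2 of 19 PRC1 subunit genes more and 0 less, and 2 of 9 partners of UTX more and 1 less. Among 7 other acetyltransferase genes 2 were more and 1 less, among 10 other deacetylase genes 1 and 1, and among 6 readers of acetyl-lysine 3 and 1. Among the genes covered more, the means differed most at *Smarca2*, which encodes an ATPase of BAF remodelling complexes. It had 11041 and 9071 bp in CINs versus 7966 and 7036 bp in non-CINs. *Kat7*, an acetyltransferase of the MYST family, had 2755 and 3462 bp against 2185 and 2094 bp, and *Cbx6*, a PRC1 subunit, had 3134 and 3043 bp against 1841 and 2682 bp.

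Among the related genes covered less, the means differed most at *Aebp2*, which encodes an accessory PRC2 subunit. It had 6713 and 4650 bp in CINs versus 9934 and 6837 bp in non-CINs. The populations were barely apart there, with 6713 bp in CIN replicate 1 against 6837 bp in non-CIN replicate 2. *Kat6a*, another MYST acetyltransferase, had 4786 and 5259 bp against 6127 and 6690 bp, and *Hdac8*, an X-linked class I deacetylase, had 1998 and 1097 bp against 2397 and 3342 bp. H3K27me3 was absent from all lists at 35 of the 58 genes and present in all 4 lists at 10, near the shares over all genes of 59.3% and 21.1%. By role, 8 of the 19 PRC1 subunit genes and 2 of the other 39 had it in all 4 lists, a count with no test. Of the 23 related genes with a peak in at least 1 list, 0 were covered more by H3K27me3 in CINs (7.33% of the 8933 such genes) and 1 was covered less (11.1%), namely *Phc2*, at 0 and 1051 bp in CINs versus 1223 and 2075 bp in non-CINs.

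**Figure D5:**
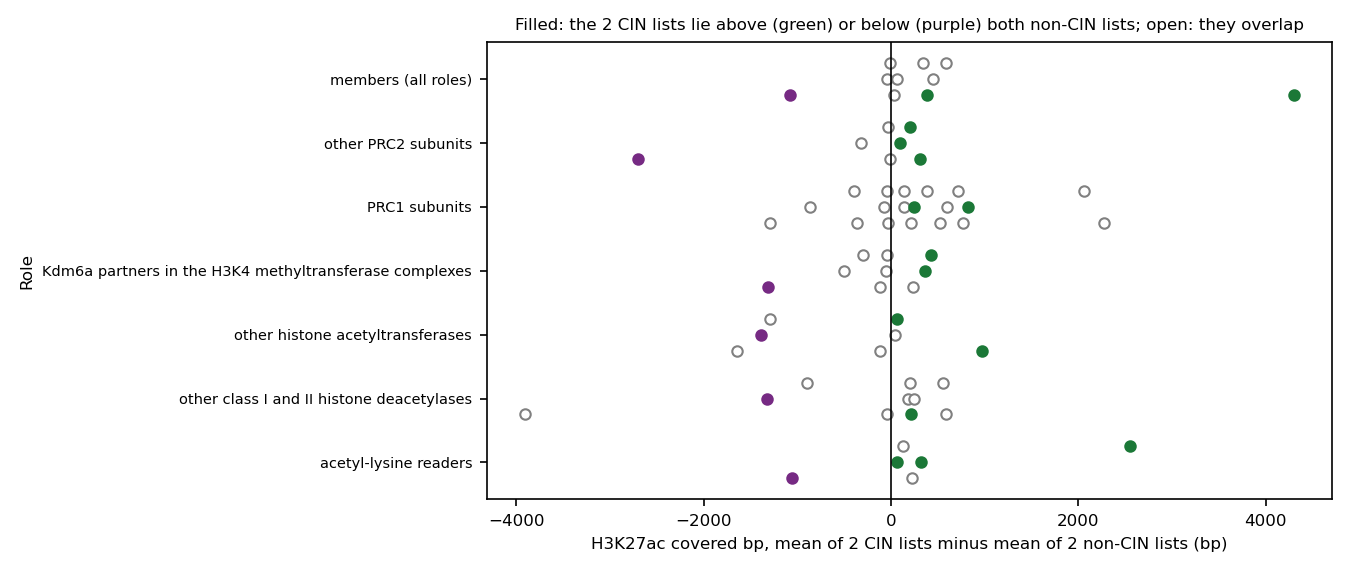
Difference in H3K27ac covered length (bp) between the mean of the 2 CIN lists and the mean of the 2 non-CIN lists, 1 point per gene, for the 10 genes in the top row and the 58 related genes by role below. Filled points are genes whose CIN lists both lie above (green) or below (purple) both non-CIN lists, 13 and 5 of the related genes, and *Jarid2* is the filled point farthest to the right.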

How the data were processed

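H3K27ac and H3K27me3 were profiled in 2 replicates each of CINs and non-CINs, against 4 inputs. Per the labels, the authors aligned reads to mm10 and called broad peaks for each sample against its input, and their processing notes name BWA 0.7.15, MACS2 2.2.7, SAMtools and deepTools 3.4.3. The score deposited for each peak is the caller's scaled −log10 q. The fold enrichment deposited for each peak is a ratio of ChIP to input signal and was ranked within its own list. The −log10 p and −log10 q values deposited for each peak come from the same caller. Read numbers were not used here, so depth and its precision are unknown, and the study's differential calling on coverage was not rerun. The 2 replicates per group measure the spread between pooled samples.

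Genes were taken from GENCODE vM21 basic, in windows from 5 kb upstream to the gene end, and RefSeq starts from the GRCm38.p6 annotation. Members and lists were chosen with earlier results of these data known. Named were all 10 members and, of the related genes, up to 3 in each direction with the largest non-overlapping difference. CIN-only regions were built from peaks merged at 500 bp within replicate numbers. Replicate numbers mark 2 independent experiments in the series' design, and over genes the deviations of same-numbered lists from their group means correlated (Pearson's r = 0.56 over 14650 genes for H3K27ac and 0.919 over 8933 for H3K27me3; genes are not independent). Alternatives were the replicate block, a −log10 q of at least 4, windows of 10 kb or no upstream part, other genes left out, scaling to list length, merged peaks and each list left out. Other start definitions and RefSeq models were added after seeing the data. The values and sequence of 1 region are not reported here. Python 3.11.15, SciPy 1.17.1, pysam 0.24.0 and matplotlib 3.10.9 were used. On simulated data 60 of 60 interval operations equalled those of bedtools 2.31.1.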

Additional observations from a re-analysis of the deposited data

How the results depend on the processing

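*Jarid2* was covered more by H3K27ac in CINs under every alternative run, and *Crebbp* less under all but peaks merged at 500 bp. With the replicate block, 2 genes were covered less by H3K27ac and 1 more by H3K27me3 in CINs, and no other count moved by over 1.5 times. Without the block, CIN-only regions numbered 2. Scaled to list length, 1 gene each was covered more by H3K27ac and by H3K27me3, and with peaks merged at 500 bp 0 were covered less by H3K27ac. At a −log10 q of at least 4, 1 gene was covered less by H3K27me3 (*Crebbp*), 1 had a lower H3K27ac percentile and 0 had H3K27me3 in all 4 lists. With 10 kb upstream these last 2 counts were 1 and 4, and with no upstream part 1 and 1, where 1 gene was covered less by H3K27me3 and the percentile difference of *Ezh1* turned to 0.535 points higher in CINs. H3K27ac at the start in all 4 lists was found at 8 genes within 1 kb, at 7 with a −log10 q of at least 4 as well, at 5 over any GENCODE transcript start, and at 6 over and 9 within 1 kb of any RefSeq start. The causes were not tested.

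Single lists decided many counts. Leaving out 1 list at a time gave 2 to 6 genes covered more and 1 to 5 covered less by H3K27ac (6 more without CIN replicate 2, 5 less without CIN replicate 1), 0 to 1 covered more by H3K27me3 and 2 covered less, and 1 to 5 with higher and 3 to 6 with lower percentiles (5 higher without non-CIN replicate 1, 6 lower without non-CIN replicate 2). From 1 replicate alone, 2 or 8 CIN-only and 3 or 4 non-CIN-only regions were found. The depth behind a missing peak is unknown, and with 2 lists a side no exact test can pass.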
